A study of Mus musculus with 16 samples.

Results

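Prostaglandins are made from arachidonic acid in a short chain of enzymes. In cells sorted from mouse hearts as lymphatic endothelium, 4 genes of that chain are described here: Pla2g4a, Ptgs1, Ptgs2 and Ptges. They are 4 of the 15895 genes in the expression table and were found by their symbols. The set was chosen by earlier results on the same libraries, with the level of these genes in the 4 groups of the study already known. The levels and the group differences of the 4 genes are therefore given as a description, with standard errors and intervals and without p-values. Tests are given for the other genes of the pathway.

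RNA sequencing was done on 16 libraries of cells sorted from CD1 mouse hearts as CD45-, CD31+ and podoplanin+. The 4 groups combined 2 kinds of surgery with 2 ages. Mice had either a sham operation or an MI, that is a myocardial infarction made by tying off a coronary artery, on postnatal day 1 (sham P1, MI P1) or on day 56 (sham P56, MI P56), and hearts were taken 3 days after surgery, with 4 libraries per group. Sham hearts had the same surgery without the ligation, and all animals were of the outbred CD1 stock with no engineered allele named in the labels. The neonatal libraries came from pooled ventricles digested with Liberase under agitation for 30 to 40 minutes, and the adult libraries from males whose hearts were perfused with Liberase for about 8 minutes, so that age cannot be told apart from digestion, pooling and sex. Nothing in the labels says which animals or pools stand behind each library of a group, so intervals and p-values measure the spread between these libraries.

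Cytosolic phospholipase A2, the product of Pla2g4a, frees arachidonic acid from membrane phospholipids. The cyclooxygenases encoded by Ptgs1 (COX-1) and Ptgs2 (COX-2) convert it to prostaglandin H2, the common precursor of all prostanoids, and microsomal prostaglandin E synthase, encoded by Ptges, turns that precursor into prostaglandin E2. Ptgs1 is generally present at a steady level in many cells, including platelets and endothelium, whereas Ptgs2 is an inducible gene that responds to cytokines, growth factors and mechanical stress. Prostaglandin E2 and prostacyclin act on lymphatic vessels and on the tone and permeability of other vessels.

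Values are read counts per library scaled by depth and by the trimmed mean of M values (TMM), as deposited, and 1 library column is 1 library. Of the 16 libraries, 3 (sham P1 libraries 1 and 2 and MI P56 library 5) had reads on fewer than 10000 genes and are given as values only. They were not low in total reads, but most reads fell on few genes. In that order, Uqcrc1 held 18.1%, 98.6% and 99.8% of their reads, and mitochondrial rRNA 56.4%, 0.655% and 0.0691%. The other 13 libraries had reads on 14121 to 15821 genes each and make up every mean and difference below unless all 16 are named. Among them, sham P1 library 5 had 47.3% of its reads on Uqcrc1 and 27.7% on mitochondrial rRNA. Uqcrc1 held 0.0930% to 4.11% of reads in the rest of the fitted libraries. Depth over all 16 ran from 17103319 to 43837520 reads. In the 13 libraries, 3 reads corresponded to a value of 0.0489 to 0.109. In the 3 others 3 reads corresponded to 0.359, 12.1 and 12.9, so a value of 0 or of several units there rests on very few reads. Markers of lymphatic endothelium were present in each of the 13 libraries, and 9 of the 10 listed were in the table. Their sum was 2121 to 3628 in sham P56 and 1209 to 2739 in MI P56, with overlap. In neonatal hearts the sum was 2446 to 3564 in sham P1 and 2025 to 3216 in MI P1. Of the 9 markers, 2 were lower in every MI P56 library than in any sham P56 library, 7 overlapped and 0 were higher. Prox1, the transcription factor that defines lymphatic identity, had a mean of 189 to 371 by group. Libraries are numbered 1, 2, 3 and 5 in each group, as in the table.

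The 4 genes lie at 2 places on chromosome 1 and 2 places on chromosome 2 (GRCm38). Ptgs2 (ENSMUSG00000032487) spans chr1:150100031-150108227 on the plus strand, and Pla2g4a (ENSMUSG00000056220) spans chr1:149829618-149961290 on the minus strand. Their start sites face away from each other and are 138.741 kb apart, so the enzyme that supplies the substrate and the inducible cyclooxygenase are neighbours on the chromosome. Ptgs1 (ENSMUSG00000047250) spans chr2:36230426-36252272 on the plus strand and Ptges (ENSMUSG00000050737) spans chr2:30889471-30929863 on the minus strand. A short unprocessed transcript model, Gm43621, lies on the opposite strand of Ptgs1 at chr2:36248709-36250730 and is also a row of the table. Whether counting used strand is not given in the sources used here, so reads of Ptgs1 and Gm43621 may not be told apart there.

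The promoters of the cyclooxygenase genes are shown because Ptgs2 and Ptgs1 differed in their pattern across the 4 groups. Both sequences are from RefSeq (GRCm38.p6), run from 250 bases before the annotated start to 25 bases after it on the plus strand, and are written in lower case with motif matches in capitals. The Ptgs2 stretch is chr1:150099781-150100055 and the Ptgs1 stretch is chr2:36230176-36230450.
Ptgs2: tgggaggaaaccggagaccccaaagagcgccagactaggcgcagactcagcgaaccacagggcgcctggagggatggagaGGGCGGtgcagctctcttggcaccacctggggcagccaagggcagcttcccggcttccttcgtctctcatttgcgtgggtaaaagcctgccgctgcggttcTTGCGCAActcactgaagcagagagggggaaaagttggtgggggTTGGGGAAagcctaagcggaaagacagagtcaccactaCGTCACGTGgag
Ptgs1: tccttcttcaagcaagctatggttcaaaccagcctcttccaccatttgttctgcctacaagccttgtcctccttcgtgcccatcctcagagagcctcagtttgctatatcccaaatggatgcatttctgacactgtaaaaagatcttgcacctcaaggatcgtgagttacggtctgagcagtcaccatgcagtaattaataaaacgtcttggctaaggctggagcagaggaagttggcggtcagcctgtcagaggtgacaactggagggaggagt
Motifs were searched on both strands in windows of 300 bases, and the share of all 32851 promoters in the reference table that hold each one was 1.79% for the full cAMP response element TGACGTCA, 20.8% for its shorter core TGACG, 7.15% for the E-box CACGTG, 7.81% for the AP-1 motif TGANTCA, 40.7% for the C/EBP motif TTNNGNAA, 35.7% for the GC box GGGCGG, 13.6% for the TATA motif TATAAA and 1.63% for the kappaB motif. The Ptgs2 window held the TGACG core read as CGTCA at position 14 after the start, overlapping the E-box CACGTG that begins at position 17, and the C/EBP matches TTGCGCAA at -69 and TTGGGGAA at -25. It also held a GC box at -170. The Ptgs1 window held none of these letters. A match is only a description of the sequence.

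Ptgs2 was the member whose level differed most between the groups: it was low in sham adult hearts and lay between 10.1 and 31.8 in each library of the other groups. In sham P56 its value was 3.70, 0.0776, 0.561 and 0.953 in libraries 1, 2, 3 and 5, from 165, 3, 31 and 56 reads. In MI P56 it was 28.0, 12.0 and 26.7 in libraries 1, 2 and 3, from at least 558 reads. Every MI P56 library lay above every sham P56 library, and library 1 of sham P56 stood above the other sham P56 libraries without reaching the infarcted range.

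The neonatal libraries were already high without infarction. Ptgs2 was 11.5 and 12.0 in sham P1 libraries 3 and 5, and 29.5, 31.8, 10.1 and 11.7 in MI P1 libraries 1, 2, 3 and 5. The MI P1 libraries fell into a pair near 30 and a pair at the sham level, so the groups overlapped. As group means, Ptgs2 was 22.3 ± 8.88 in MI P56 (SD, n = 3), 20.8 ± 11.5 in MI P1 (n = 4), 11.7 ± 0.309 in sham P1 (n = 2) and then 1.32 ± 1.62 in sham P56 (n = 4). In that order MI P56, MI P1 and sham P1 overlapped their neighbours, and sham P56 overlapped none.

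Ptgs1, the other cyclooxygenase, showed no such contrast in the adult heart. Its value was 8.23, 12.4, 6.57 and 13.8 in sham P56 libraries 1, 2, 3 and 5, and 8.39, 19.6 and 5.00 in MI P56 libraries 1, 2 and 3. The MI P56 libraries lay on both sides of the sham range. In the neonatal heart it was 5.89 and 3.08 in sham P1 libraries 3 and 5, and 18.0, 12.5, 13.0 and 11.6 in MI P1 libraries 1, 2, 3 and 5. Every MI P1 library was above both sham P1 libraries. The group means in falling order were 13.8 ± 2.88 in MI P1 (SD, n = 4), 11.0 ± 7.65 in MI P56 (n = 3), 10.2 ± 3.41 in sham P56 (n = 4) and 4.48 ± 1.98 in sham P1 (n = 2), and the neighbours MI P1 and MI P56 overlapped, as did MI P56 and sham P56. The antisense model Gm43621 had means of 4.62 ± 2.49 (SD) in MI P1, 4.15 ± 3.27 in sham P56, 2.55 ± 3.35 in sham P1 and 1.64 ± 0.785 in MI P56, with the same n, and its part in the Ptgs1 values was not tested.

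Pla2g4a, the phospholipase at the head of the chain, was highest in infarcted adult hearts. It was 26.0, 10.1 and 25.6 in MI P56 libraries 1, 2 and 3 and 3.74, 10.8, 6.60 and 9.99 in sham P56 libraries 1, 2, 3 and 5. Libraries 1 and 3 of MI P56 were well above the sham range and library 2 lay within it. In the neonatal groups it was 3.10 and 4.71 in sham P1 libraries 3 and 5, and 5.83, 5.89, 7.13 and 4.47 in MI P1 libraries 1, 2, 3 and 5. The means were 20.6 ± 9.07 in MI P56 (SD, n = 3), 7.79 ± 3.25 in sham P56 (n = 4), 5.83 ± 1.08 in MI P1 (n = 4) and 3.91 ± 1.14 in sham P1 (n = 2), and each neighbour in that order overlapped the next.

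Ptges, the prostaglandin E2 synthase, had the lowest level of the 4 enzymes, with 13 to 147 reads in 12 of the 13 libraries and 1 read in the other. It was 0.411, 3.17 and 1.68 in MI P56 libraries 1, 2 and 3, from 21, 147 and 103 reads, and 1.05, 0.0259, 0.597 and 0.323 in sham P56 libraries 1, 2, 3 and 5, from 47, 1, 33 and 19 reads. The adult groups overlapped through MI P56 library 1. It was 1.16 and 0.471 in sham P1 libraries 3 and 5, and 1.09, 0.309, 0.374 and 0.491 in MI P1 libraries 1, 2, 3 and 5. Group means were 1.75 ± 1.38 in MI P56 (SD, n = 3), 0.816 ± 0.487 for sham P1 (n = 2), 0.566 ± 0.357 for MI P1 (n = 4) and 0.500 ± 0.437 in sham P56 (n = 4), all overlapping. All 4 genes passed the filter, which asked for 4 libraries with a value of 1 or more, and Ptges passed it with 5 libraries of 13.

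**Figure D1:**
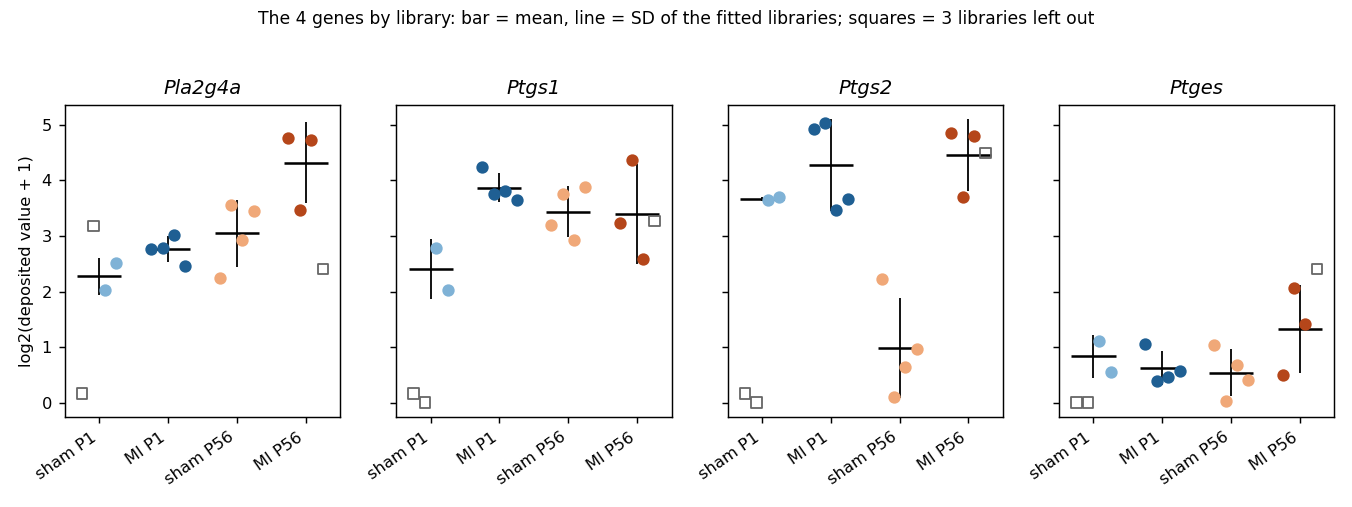
Each point is 1 library, with log2(deposited value + 1) on the vertical axis and the group on the horizontal axis. Bars are group means and lines the SD of the 13 fitted libraries, and open squares are the 3 libraries left out. The 4 sham P56 libraries of Ptgs2 (0.0776 to 3.70) sit below all other fitted libraries of that gene.

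In the 3 libraries left out, the values of all 4 genes rest on at most 5 reads. In sham P1 library 1, Pla2g4a, Ptgs1 and Ptgs2 each had 1 read (value 0.120) and Ptges had none. In sham P1 library 2 Pla2g4a had 2 reads (8.08) and the other 3 genes had none. In MI P56 library 5, Ptgs2 had 5 reads (21.6), Ptgs1 had 2 reads (8.63), and Pla2g4a and Ptges had 1 read each (4.31).

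Per kilobase of exon, which allows levels of different genes to be compared, Ptgs2 had the highest mean of the 4 in 3 of the 4 groups. Reads of Ptgs1 that may not be told apart from Gm43621 were not accounted for, here or in the cyclooxygenase share below. Its mean level per kb was 4.86 in MI P56, 4.54 in MI P1 and 2.56 in sham P1, against 2.83, 3.55 and 1.15 for Ptgs1. In sham P56 the order was the other way, with Ptgs2 at 0.289 and Ptgs1 at 2.64. Pla2g4a ran from 0.611 per kb in sham P1 to 3.22 in MI P56, and Ptges from 0.127 in sham P56 to 0.446 in MI P56.

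The share of the cyclooxygenase level per kb that came from Ptgs2 was computed per library. It was 27.6%, 0.526%, 6.75% and 5.54% in sham P56 libraries 1, 2, 3 and 5, and 73.9%, 34.2% and 81.9% in MI P56 libraries 1, 2 and 3. The adult groups did not overlap, and the exact binomial 95% interval of the lowest MI P56 library (31.8% to 36.6%) lay just above that of the highest sham P56 library (24.0% to 31.5%). In the neonatal heart it was 62.4% and 76.7% in sham P1 libraries 3 and 5, and 58.1%, 68.3%, 39.6% and 46.2% in MI P1 libraries 1, 2, 3 and 5. The means were 10.1 ± 12.0% in sham P56 (SD, n = 4), 63.3 ± 25.5% in MI P56 (n = 3), 69.6 ± 10.1% for sham P1 (n = 2) and 53.0 ± 12.7% for MI P1 (n = 4). The intervals cover counting error only, and not reads that Ptgs1 may share with Gm43621.

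**Figure D2:**
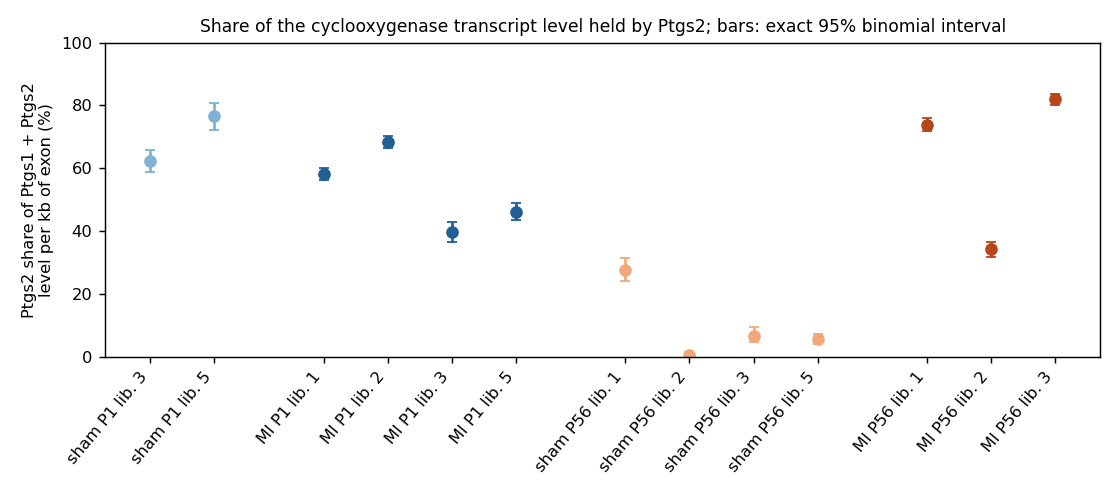
Each point is 1 of the 13 libraries, and the vertical axis is the percentage of the summed Ptgs1 and Ptgs2 level per kb of exon that came from Ptgs2, with exact 95% binomial intervals. The sham P56 libraries lie between 0.526% and 27.6% and every other library is at 34.2% or above.

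The first comparison sets MI beside sham in the cells sorted from adult hearts. Over all genes, limma called 446 of 13033 genes tested at an adjusted p under 0.05 (307 higher after MI and 139 lower), which is 3.42% of them. The enzymes were chosen with this and the following contrasts known, so their differences are given by size and interval and are read as no test. Ptgs2 was higher by 3.46 on the log2(value + 1) scale (SE 0.47, 95% interval 2.48 to 4.44), or 11.0-fold on that scale. Pla2g4a was 1.27 higher (SE 0.36, 0.51 to 2.04) and Ptges 0.79 higher (SE 0.36, 0.04 to 1.54). Ptgs1 differed by -0.05 (SE 0.37, -0.82 to 0.73). The groups did not overlap for Ptgs2 alone of the 4, and 8.00% of all genes tested were higher in every MI P56 library in the same way. With all 16 libraries the Ptgs2 difference was 3.48 (SE 0.76, 1.90 to 5.05) and that of Pla2g4a 0.80 (SE 0.63, -0.51 to 2.10). Ptges was then 1.06 higher (SE 0.41, 0.22 to 1.90) and Ptgs1 differed by -0.08 (SE 0.59, -1.31 to 1.15).

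MI P56 library 2 was at an end of its group for each of the 4 enzymes. It had the lowest Ptgs2 and Pla2g4a and the highest Ptgs1 and Ptges of the 3 libraries. It also had the highest summed macrophage and monocyte markers of the group, at 154 against 71.1 and 114 in libraries 1 and 3. The same held for blood endothelial (508 against 354 and 251), cardiomyocyte (575 against 506 and 326), mesothelial and platelet markers and for the inflammatory cytokine list. Its lymphatic, fibroblast, and pericyte and smooth muscle sums lay between those of libraries 1 and 3. Its mast cell and immediate early sums were the lowest of the group. Leaving out 1 library at a time, the difference between MI P56 and sham P56 ranged from 1.01 to 1.70 for Pla2g4a and from 3.17 to 3.88 for Ptgs2.

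At P1 the same comparison gave no call among all 13033 genes (0.00%) with limma, and none with edgeR, while DESeq2 called 7 genes and 485 genes had an unadjusted limma p under 0.05. Ptgs1 showed the largest difference of the 4 enzymes, at 1.46 higher after MI (SE 0.42, 95% interval 0.59 to 2.34), and its groups did not overlap, as was so for 8.89% of all genes in that direction. Ptgs2 was 0.61 higher (SE 0.53, -0.51 to 1.72), Pla2g4a 0.48 higher (SE 0.41, -0.38 to 1.35) and Ptges -0.21 (SE 0.41, -1.06 to 0.64). These rest on 2 sham P1 libraries, and library 5 had 47.3% of its reads on Uqcrc1. With all 16 libraries, where the added sham P1 libraries hold 0 or 1 reads of each cyclooxygenase, the differences were 2.63 for Ptgs1 and 2.40 for Ptgs2.

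The difference between the infarction responses at the 2 ages is the comparison of adult with neonatal hearts that the study is built on. limma called 63 of 13033 genes (0.483%). Ptgs2 had a response 2.86 larger at P56 (SE 0.71, 95% interval 1.38 to 4.34), and Ptgs1 a smaller one, at -1.51 (SE 0.56, -2.68 to -0.34). Pla2g4a differed by 0.79 (SE 0.55, -0.36 to 1.94) and Ptges by 1.00 (SE 0.54, -0.13 to 2.13). The differences of the cyclooxygenases had opposite signs, which is a description of genes chosen with this contrast known and is read as no test. With all 16 libraries the Ptgs2 difference was 1.08 (SE 1.08, -1.15 to 3.30).

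The ages were also compared within each surgery, and these comparisons share their sham or MI libraries with those above. In sham hearts limma called 1716 of 13033 genes (13.2%). Ptgs2 was lower at P56, at -2.68 (SE 0.53, 95% interval -3.79 to -1.57), with groups that did not overlap (16.7% of all genes were lower without overlap). Ptgs1 was 1.03 higher (SE 0.42, 0.16 to 1.91), with groups that did not overlap (16.3% of all genes higher). Pla2g4a was 0.77 higher (SE 0.41, -0.09 to 1.64) and Ptges -0.30 (SE 0.41, -1.15 to 0.56). With all 16 libraries Ptgs2 was at -0.89 (SE 0.76) and Ptgs1 at 2.20 (SE 0.59).

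After MI limma called 697 of 13033 genes between the ages (5.35%). Pla2g4a was 1.56 higher at P56 (SE 0.36, 95% interval 0.80 to 2.33), without overlap, as were 9.44% of all genes in that direction. With all 16 libraries it was 1.09 higher (SE 0.63, -0.22 to 2.39). Ptgs2 was 0.17 higher (SE 0.47, -0.81 to 1.15), Ptgs1 -0.48 (SE 0.37, -1.25 to 0.30) and Ptges 0.70 higher (SE 0.36, -0.05 to 1.45).

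**Figure D3:**
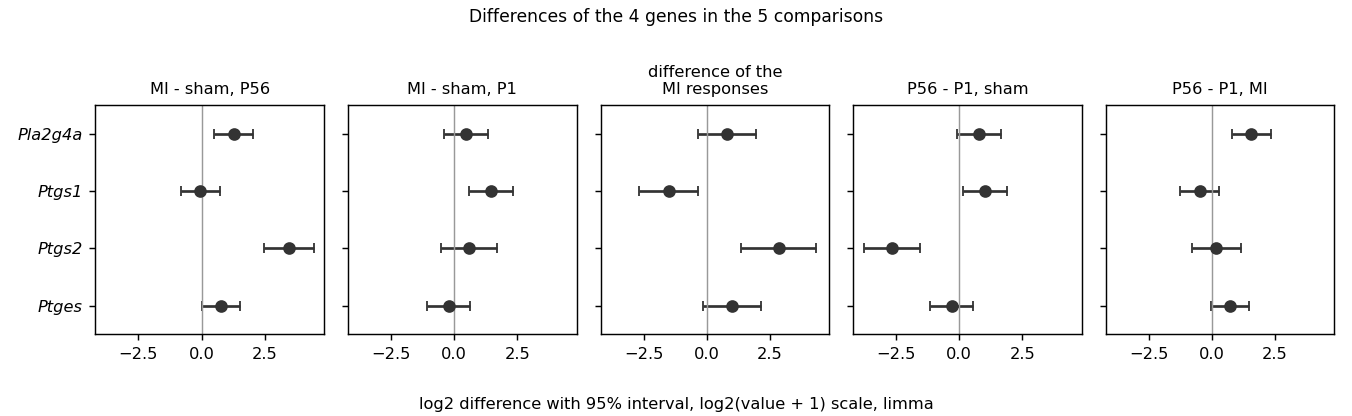
Points are the log2 differences of the 4 genes on the log2(value + 1) scale in the 5 comparisons, with 95% intervals from limma on 13 libraries. Ptgs2 stands at 3.46 for MI against sham at P56 and at -2.68 for P56 against P1 in sham, while Ptgs1 has its largest positive value, 1.46, for MI against sham at P1.

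The other genes of the pathway were taken from 5 lists written from textbook knowledge: arachidonate release, terminal prostanoid synthases, prostanoid receptors, prostanoid transport and breakdown, and the lipoxygenase branch that competes for the same substrate. Of 65 symbols, 38 were in the table and 34 passed the filter. In MI P56 against sham P56, 1 of the 34 was called, lower, where 3.42% of all genes were called, and the median difference over the 34 was 0.02, beside 0.01 over all genes tested. At P1 and for the difference between the responses 0 of 34 were called by limma (1 and 5 at an unadjusted p under 0.05), with 0 and 0 by edgeR and 0 and 1 by DESeq2. Between the ages 5 of 34 were called in sham, where 13.2% of all genes were called (5.89% higher at P56 and 7.28% lower), and 2 of 34 after MI, where 5.35% were called (2.09% higher and 3.26% lower). All 7 were higher at P56. Over both directions the number called was near the background in each case. For genes higher at P56 alone, 5 of 34 and 2 of 34 were above the shares of 5.89% and 2.09%. These counts are small and the lists were not tested as sets.

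Among the genes of arachidonate release, 10 of 20 were in the table and 9 were tested. Mgll, monoacylglycerol lipase, which frees arachidonic acid from the endocannabinoid 2-arachidonoylglycerol, fell after MI in the adult heart by 1.14 on the log2 scale (SE 0.29, limma adjusted p = 0.0367). Its value was 27.7 ± 6.03 in sham P56 (SD, n = 4) and 12.2 ± 3.89 in MI P56 (n = 3), and the groups did not overlap. The call was lost with all 16 libraries, with edgeR, with only the groups compared, and without any 1 of 5 libraries (MI P1 library 3, sham P56 libraries 1 and 5, MI P56 libraries 2 and 3). Mgll was 1.46 higher at P56 than at P1 in sham hearts (SE 0.33, limma adjusted p = 0.00556). Pla2g16, a phospholipase of the HRAS-like family, was 1.73 higher in sham P56 than in sham P1 (SE 0.38, limma adjusted p = 0.00422), at 9.09 ± 1.07 against 2.05 ± 0.634 (n = 4 and 2). After adult MI Pla2g16 had a value of 5.21 ± 0.971 (n = 3), below every sham P56 library, without a call (limma adjusted p = 0.287). Mgll and Pla2g16 had lower values after adult MI where Pla2g4a had a higher mean.

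Of the 12 terminal synthases listed beside Ptges, 9 were in the table, 8 were tested and limma called none in any comparison on the 13 libraries. All 8 had a positive difference between MI P56 and sham P56, with a median of 0.28. The largest belonged to Ptgis, prostacyclin synthase, which makes the vasodilator that endothelium is best known for. Ptgis had a value of 10.6 ± 1.19 in MI P56 (SD, n = 3) and 4.08 ± 1.36 in sham P56 (n = 4), a difference of 1.23 (SE 0.36, limma adjusted p = 0.0645), with every MI P56 library above every sham P56 library. Ptgis was called there with DESeq2 and without MI P1 library 5, and not under the other alternatives run. At P1 Ptgis was 7.71 ± 2.58 in sham (n = 2) and 7.78 ± 3.91 in MI hearts (n = 4).

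Per kb, the mean level of Ptgis exceeded that of Ptges in each group, at 4.12 against 0.446 in MI P56 and 1.59 against 0.127 in sham P56. Ptges3, a cytosolic prostaglandin E synthase that is also the co-chaperone p23, had a mean value between 7.64 and 8.66 in the 4 groups and a difference of 0.06 after adult MI (SE 0.30). Ptges2, another membrane-bound synthase, had too few values of at least 1 to be tested, with means of 0.327 to 0.526. Hpgds, the hematopoietic prostaglandin D synthase, had means of 0.964 to 2.54, and Tbxas1, thromboxane synthase, had means of 0.945 to 2.37.

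Of 11 receptor genes listed, 7 were in the table and 6 were tested, with none called for infarction. Ptger1 and Ptger2 were not among the rows. Ptger4, which encodes the EP4 receptor of prostaglandin E2, had its lowest mean in sham P56 (4.51), with 6.99 in MI P56, 6.16 in MI P1 and 9.04 in sham P1, and its difference after adult MI was 0.79 (SE 0.46, limma adjusted p = 0.403). Ptger3, the EP3 receptor gene, was below the filter. It had no read in any sham P56 library, where the value of 3 reads is at most 0.0776, and means of 0.433 in MI P56, 1.06 in MI P1 and 0.280 in sham P1. Ptgir, the prostacyclin receptor gene, had means between 0.635 and 2.43. Ptgfrn, which encodes a negative regulator of the prostaglandin F2 alpha receptor, had a value of 110 ± 15.5 in MI P56 (n = 3) and 62.3 ± 4.77 in MI P1 (n = 4), and was 0.81 higher in MI P56 (SE 0.22, limma adjusted p = 0.0362). That call was lost with all 16 libraries, with edgeR, with the replicate block and without any 1 of the 7 MI libraries.

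All 7 genes of transport and breakdown were in the table and tested. Abcc4, which encodes the MRP4 exporter of prostaglandins, was higher at P56 in both surgeries: by 1.75 in sham (SE 0.37, limma adjusted p = 0.00332) and by 1.70 after MI (SE 0.33, limma adjusted p = 0.00395). Its mean was 6.12 in sham P56 against 1.07 in sham P1, and 7.34 in MI P56 against 1.59 in MI P1. Between MI P56 and sham P56 Abcc4 differed by 0.25 (SE 0.33, 95% interval -0.44 to 0.93). Slco2a1, the prostaglandin importer, had a mean of 24.8 in MI P1 and of 12.9 in sham P1, a difference of 0.97 (SE 0.35) whose groups did not overlap, and means of 26.2 and 25.7 in sham P56 and MI P56. Its limma adjusted p at P1 was 1. Hpgd, which inactivates prostaglandins, was 4.80 ± 5.21 in sham P56 (n = 4) and 12.0 ± 5.51 in MI P56 (n = 3), a difference of 1.43 (SE 0.51, limma adjusted p = 0.136) with groups that overlapped.

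In the list written for the lipoxygenase branch 5 of 15 genes were in the table and 4 were tested. Ephx2 was placed in this list although the epoxide hydrolase it encodes acts outside the lipoxygenase reactions. Cysltr1, a receptor for cysteinyl leukotrienes, was 1.80 higher in sham P56 than in sham P1 (SE 0.44, limma adjusted p = 0.00897), and Ephx2, the soluble epoxide hydrolase, was 1.22 higher (SE 0.39, limma adjusted p = 0.0451). Both are low in neonatal sham cells, at means of 0.205 and 0.161. All 4 tested genes had a negative difference between MI P56 and sham P56, with a median of -0.64, and none was called.

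The age calls in sham rest on 2 sham P1 libraries. Each of the 5 genes lost its call in at least 1 of the 2 fits that leave out sham P1 library 3 or library 5. Those fits hold 1 sham P1 library each. Ephx2 was also not called with a pseudocount of 4, with edgeR or with the replicate block, and Mgll in sham and Abcc4 after MI were not called with all 16 libraries.

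**Figure D4:**
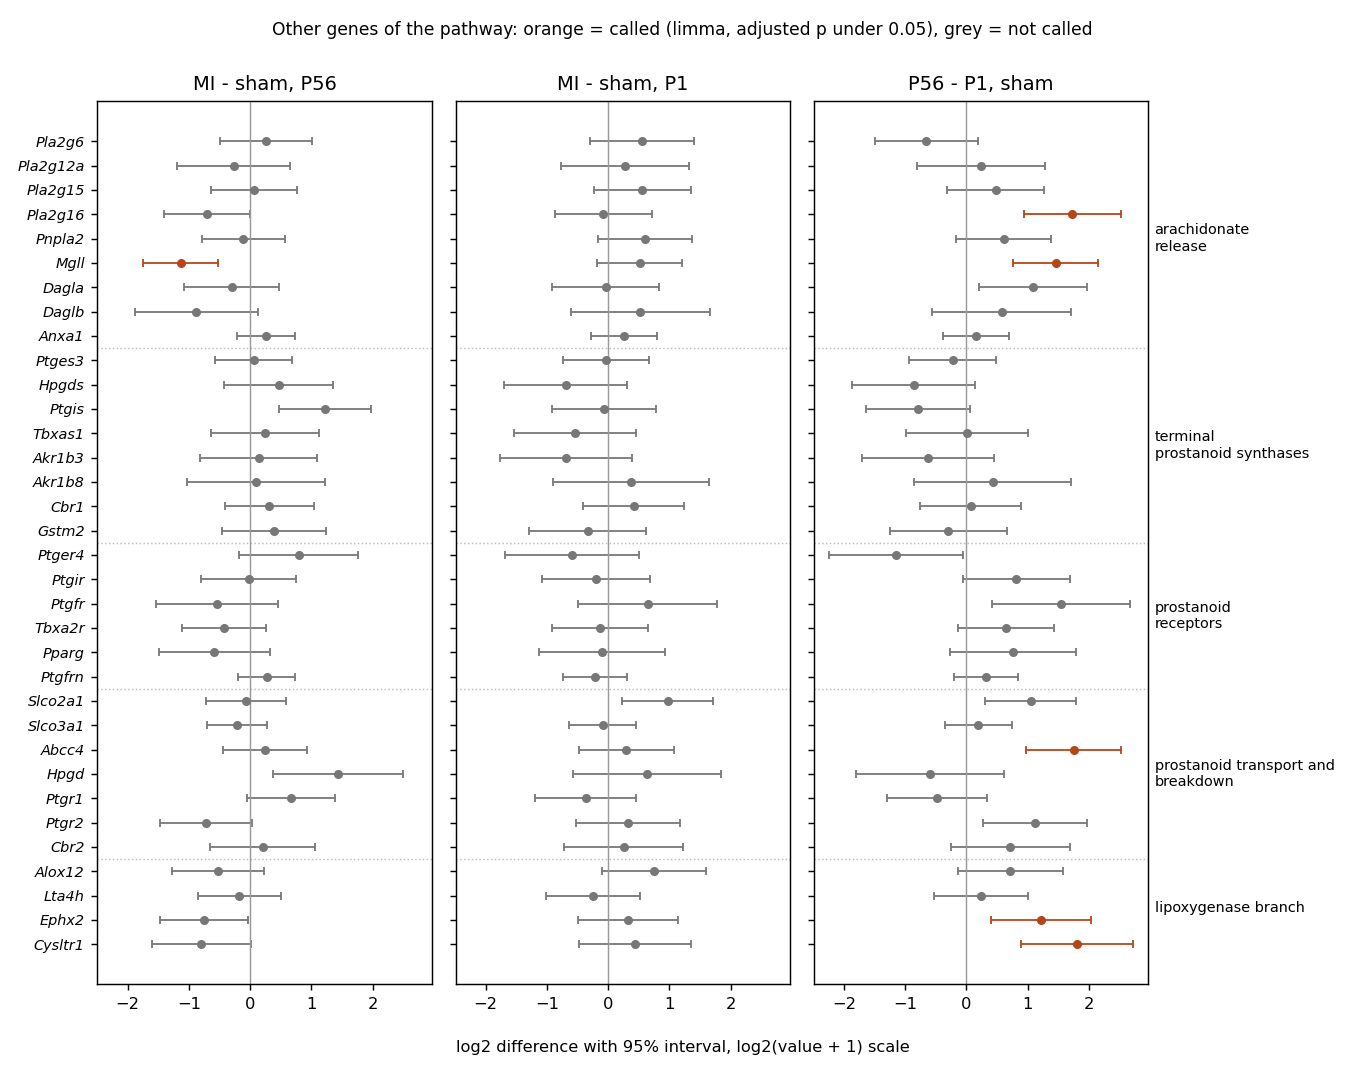
Each row is 1 of the 34 tested pathway genes other than the 4 enzymes, and points are log2 differences with 95% intervals (limma, log2(value + 1) scale) for MI against sham at P56, MI against sham at P1 and P56 against P1 in sham. Orange marks called genes. Mgll is the 1 gene called for infarction, at -1.14, and 5 genes are called for age in sham, all higher at P56.

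A list of 19 inflammatory cytokine genes, of which 15 were in the table, had summed values of 95.4 to 102 in sham P56, 208 to 261 in MI P56, 198 to 217 in sham P1 and 165 to 448 in MI P1. Like Ptgs2, it was lowest in all sham P56 libraries. Il6, the interleukin 6 gene, had a mean of 0.0570 in sham P56, 3.32 in MI P56, 8.53 in sham P1 and 6.69 in MI P1. Immediate early genes rise within minutes of stress and also during tissue digestion, and their sum differed mainly by age. The sum of 24 genes was 447 to 738 in sham P56 and 664 to 901 in MI P56. In neonatal hearts it was 2169 to 2309 in sham P1 and 1843 to 3376 in MI P1. Of the 24 genes, 7 were higher in every MI P56 library than in any sham P56 library, 17 overlapped and 0 were lower. Among all genes tested, 8.00% were higher in this way. In MI P56 Ptgs2 was thus in the range of the neonatal libraries while the immediate early sum was below all of them. The part of digestion or of inflammatory signalling in the Ptgs2 levels was not tested.

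**Figure D5:**
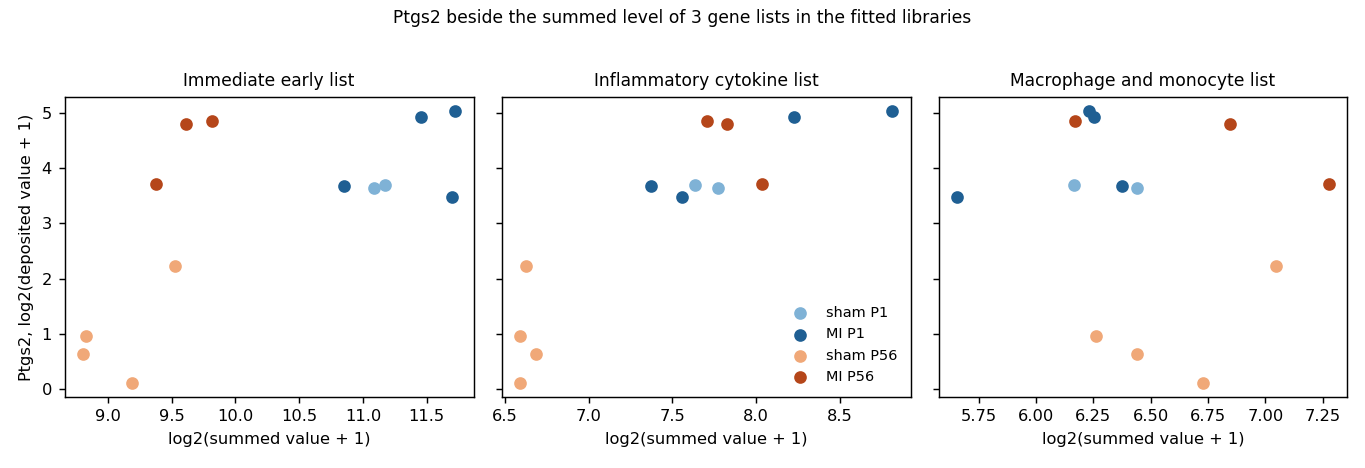
Each point is 1 of 13 libraries, with log2(value + 1) of Ptgs2 on the vertical axis and the log2 of the summed value + 1 of a gene list on the horizontal axis. The MI P56 libraries (Ptgs2 12.0 to 28.0) lie at an immediate early sum of 664 to 901, below the neonatal range of 1843 to 3376, and at an inflammatory sum of 208 to 261, above the sham P56 range of 95.4 to 102.

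Markers of other cell types were present in the sorted libraries. In bulk libraries, fewer cells of a type and less RNA per cell cannot be told apart. Of 14 macrophage and monocyte markers 12 were in the table, with sums of 75.7 to 131 in sham P56, 71.1 to 154 in MI P56, 70.7 to 85.9 in sham P1 and 49.4 to 81.9 in MI P1. The sums overlapped at P56, where Mrc1, the mannose receptor gene and the most abundant marker of the list, had a mean of 90.2 in sham and 46.2 in MI. The sum in sham P56 was therefore mostly Mrc1, and which cells its reads came from was not tested. Of the 12 markers, 5 were higher in every MI P56 library than in any sham P56 library, 1 was lower (Mrc1) and 6 overlapped. Itgam, the CD11b gene, had a mean of 0.156 in sham P56 and 9.39 in MI P56, Lyz2 of 3.04 and 31.0, Cd68 of 0.766 and 5.82, and Ptprc, the CD45 gene against which the cells were sorted, of 0.939 and 3.21. Of 7 neutrophil markers none was in the table, and of 8 mast cell markers 2 were, with sums of 2.31 to 5.86 in MI P56, 2.95 to 7.52 in sham P56, 8.02 to 13.8 in MI P1 and 5.25 to 6.96 in sham P1. Platelets are rich in Ptgs1, and 3 of 7 platelet markers were in the table. Their sums were 5.97 to 23.6 in MI P1 against 1.45 to 5.44 in sham P1, without overlap. They were 1.87 to 3.21 in MI P56 against 0.578 to 5.38 in sham P56. Pf4, a platelet gene, had a mean of 0.879 in MI P1 and of 0.460 in sham P1, so most of the P1 sums came from the other markers. The part of platelets in the Ptgs1 values was not tested.

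Fibroblast markers were abundant in all groups, with sums of 876 to 4102 in sham P56, 3801 to 8138 in MI P56, 3225 to 6712 in sham P1 and 1868 to 5539 in MI P1. In 8 of the 13 libraries the fibroblast sum exceeded the lymphatic sum. MI P56 library 3 had the lowest lymphatic sum (1209) and the highest fibroblast sum (8138) of the fitted libraries. In MI P56 library 1 these sums were 2739 and 3801. The sums of the adult groups overlapped, but 5 of the 11 markers were higher in every MI P56 library than in any sham P56 library and none was lower. Col1a1, a collagen I gene, had a mean of 147 in sham P56 and 1439 in MI P56, Postn, the periostin gene, of 98.2 and 928, and Dcn, the decorin gene, of 738 and 613. The blood endothelial sum was higher in sham P56 (658 to 1063) than in MI P56 (251 to 508). So were the cardiomyocyte sum (1297 to 2337 against 326 to 575) and the pericyte and smooth muscle sum (453 to 1171 against 217 to 353). By gene, 11 of 11 cardiomyocyte markers were lower in every MI P56 library than in any sham P56 library. Of 13 blood endothelial markers 4 were lower, 9 overlapped and 0 were higher. Of 9 pericyte and smooth muscle markers 2 were lower, 6 overlapped and 1 was higher. Mesothelial markers were at 75.2 to 419 in sham P56 and 42.6 to 98.9 in MI P56, with overlap. The part of these cell types in the enzyme levels was not tested.

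Finally, the genes whose levels most resembled each enzyme were ranked by Pearson's r of log2(value + 1) over the 13 libraries, among 6091 genes with a mean of at least 5. For Ptgs2 they were P4ha3 (r = 0.960), Cyr61 (0.936), Sdc4 (0.926), Pdzrn3 (0.926) and Itga5 (0.917), genes that encode in turn a collagen prolyl hydroxylase subunit, a matricellular protein, the proteoglycan syndecan 4, a ubiquitin ligase and an integrin subunit. For Pla2g4a they were Ctgf (0.944), Pmepa1 (0.907), Col8a1 (0.904), Prkca (0.889) and Loxl3 (0.881). For Ptgs1 the closest were Synpo2 (0.847), Tsn (0.835), Cox7a2l (0.820), Igfbp3 (0.780) and Enpp2 (0.771), and for Ptges they were B4galt5 (0.829), Sgms2 (0.825), Gbf1 (0.764), Ociad1 (0.752) and Il13ra1 (0.740). The libraries share group, age and processing, so these values describe likeness over 13 points of 4 groups.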

How the data were processed

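RNA from sorted cardiac lymphatic endothelial cells was amplified with the Ovation RNA-Seq System V2 and sequenced as single reads, per the labels' protocols. The submitters' processing notes list GRCm38 (mm10) and the tools STAR, Trimmomatic, edgeR and HTSeq. The deposited values have the unit signal: the authors named them CPM, and within each library all values are multiples of what 1 read is worth (100% of values within 0.01 read), so whole reads were recovered. The sums of the columns differ because of TMM scaling.

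From these values, genes reaching a value of 1 in 4 or more of the fitted libraries were tested, and limma-trend (limma 3.58.1, R 4.3.3) was fitted to log2(value + 1) with 4 group means, two-sided, with Benjamini-Hochberg adjustment over all 13033 genes and calls at an adjusted p under 0.05. The fit left out the 3 libraries with reads on fewer than 10000 genes. Differences on this scale understate the change of low genes. Alternatives were all 16 libraries, pseudocounts of 0.25 and 4, a value of at least 5, no filter, median-of-ratios scaling, DESeq2 1.42.0 and quasi-likelihood tests of edgeR 4.0.16 on recovered reads, only the groups compared, a block for the replicate number, and leaving out 1 library at a time. The fit was tested on simulated data. Of 15895 genes, 15871 had an identifier in GENCODE M21, which gave coordinates and exon lengths.

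The 4 genes, the lists and the tests were chosen with earlier results of these data known. Named genes are the 4 enzymes, the pathway genes called in any comparison, their neighbours in the pathway whatever their values, the 5 most alike genes of each enzyme, and defining markers. Columns are numbered 1, 2, 3 and 5 in each group and labels otherwise, so column 5 was placed by its group only.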

Additional observations from a re-analysis of the deposited data

Results flagged for a closer look

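Ptgs2 in MI P56 library 5, one of the 3 libraries outside the fit, had a value of 21.6, inside the range of the other MI P56 libraries (12.0 to 28.0). It drew attention as a signal in data that the comparisons did not use. It comes from 5 reads, and the value of 3 reads in that library is 12.9. Of 40 sets of 4 libraries (20 named genes in the 2 groups of 4), none had a library far from the others, where chance gives about 1 in 20.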

How the results depend on the processing

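Of 446 recomputed differences of the 4 enzymes, 424 stayed within 1 residual SD of the value reported. Of the 22 beyond it, 7 came with all 16 libraries, 5 with a pseudocount of 0.25, 4 with a pseudocount of 4, 6 with edgeR or DESeq2 and 0 without 1 library. All 16 libraries also shifted the median difference of all genes, to 0.39 for MI against sham at P1, -0.17 at P56, -0.50 for the difference between the responses, 0.36 for age in sham and -0.18 for age after MI.

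For MI against sham at P56 the 446 called genes became 23 with all 16 libraries, 866 with DESeq2 and 153 with only the groups compared, and ranged from 143 to 645 without 1 library. The 1 pathway gene became 0 with all 16 libraries, with edgeR and with only the groups compared, 2 with DESeq2, and 0 to 2 without 1 library. At P1 the 0 called genes became 2 with a pseudocount of 0.25, 1 with the stricter filter, 7 with DESeq2 and 8 with only the groups compared, and 0 to 2 without 1 library. For the difference between the responses the 63 genes became 1 with all 16 libraries, 34 with a pseudocount of 4 and 324 with DESeq2, and 1 to 228 without 1 library, and DESeq2 called 1 pathway gene. For age in sham the 1716 genes became 518 with all 16 libraries and 728 with only the groups compared, and 644 to 2270 without 1 library, with 1 to 7 pathway genes. For age after MI the 697 genes became 14 with all 16 libraries and 1136 with only the groups compared, and 317 to 1344 without 1 library. Its 2 pathway genes became 0 with all 16 libraries and 1 with edgeR, and 1 to 4 without 1 library. The cause of these shifts was not tested.

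Replicate numbers showed no clear pairing of the libraries. Of 15 same-numbered pairs 1 had deviations from the group means correlated above 0.1 (range -0.320 to 0.135). Of 13 libraries, 3 correlated best with a library of their own number. Deviations within such small groups are tied to each other, so these correlations cannot decide whether the numbers pair libraries. With the replicate block the interaction count was 8 and the pathway count for age after MI was 1. Depth limits Ptges, with 1 to 147 reads per library, and Ptgs2 in sham P56, with 3 to 165 reads.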
